A study of Saccharomyces cerevisiae with 17 samples.

Results

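Genes that control the entry of budding yeast into meiosis and its passage through it, *IME1*, *IME2*, *IME4*, *RIM4*, *NDT80*, *SUM1*, *RIM11* and *RIM15*, were described across 10 strains of *Saccharomyces cerevisiae*. They are 8 genes, chosen by name from the 6644 that both deposited tables hold. All 8 had a value in every column and were among the 6241 genes that passed the filter on low values.

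These genes form a cascade. In a diploid cell that lacks nitrogen and a fermentable sugar, the transcription factor Ime1 is made, and the kinases Rim11 and Rim15 help it to work with Ume6. In growing cells Ume6 sits at URS1, a short element upstream of early meiotic genes, and recruits the histone deacetylase Rpd3 and the nucleosome remodeler Isw2, which keep these genes silent. Ime1 turns Ume6 at the same sites into an activator, and the early genes that come on include the kinase gene *IME2* and the RNA-binding translational repressor gene *RIM4*. Ime4 methylates adenosines in mRNA and promotes *IME1* expression. Later Ndt80 turns on the middle genes through the middle sporulation element (MSE), where Sum1 represses them during growth.

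The strains were of the W303 background and were grown to an OD600 of 0.4 to 0.6, and the labels give neither a sporulation step nor a ploidy. Chd1-Ume6, a fusion of the nucleosome-sliding enzyme Chd1 with the DNA-binding part of Ume6, was present in the *ume6* deletion (2 columns of values), the *rrp6* deletion (2) and wild type (2), and a catalytically inactive form of it in the *ume6* deletion (1). The strains without a fusion were the *ume6* deletion (2), the *rrp6* deletion (2), the *isw2 rpd3* double deletion (1), the *rpd3* deletion (1), the *isw2* deletion (1) and wild type (1). Rrp6 is a nuclease of the nuclear exosome, which degrades RNA. The promoter that drives the fusion is not given in the sources used here. The double deletion is labelled W303 Prototroph and the other strains W303, so its 2 deletions and its background cannot be told apart.

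The labels describe 17 libraries, and the deposited values are 15 columns, 8 in a first table and 7 in a workbook that was normalized separately. Values were FPKM, that is fragments per unit length of transcript relative to all mapped fragments, whose sums lay between 889087 and 1216140 per column, so the depth of each library is unknown. From its digits the wild type column was taken to be a mean, of libraries that are not named. The targeted genes matched the labels: *RPD3* was at 0.110 FPKM in the *isw2 rpd3* double deletion and 0.0479 in *rpd3*, against 50.5 in wild type, and *UME6* at 0.0536 FPKM in the first-table *ume6* column, against 9.50. *RRP6* was at 1.68 and 0.125 FPKM in *rrp6*, against 77.1 in wild type, and *ISW2* at 0.0818 FPKM in the double deletion and 0.00613 in *isw2*, against 28.0. Markers of a cells were present in every column, while in a/alpha diploids, the cells that enter meiosis, they are off. The 7 a-cell marker genes summed to 328 FPKM in the double deletion, the lowest column, and to as much as 2918 FPKM elsewhere, the 4 alpha-cell markers to between 17.9 and 38.3 FPKM, and *RME1*, the repressor of *IME1* in haploid cells, was at 42.4 to 90.4 FPKM.

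In wild type the regulators lay at very different levels. *IME1* was the lowest of the 8, at 1.56 FPKM, where 1.70% of the fitted genes were lower. *IME2* was at 5.77 FPKM (percentile 7.55) and *RIM4* at 11.6 FPKM (18.2). *NDT80* was at 16.6 FPKM (28.2) and *RIM15* at 20.8 FPKM (36.1). *SUM1*, *RIM11* and *IME4* lay near the middle of all genes, at 28.3, 28.3 and 31.5 FPKM. *IME1* and the early genes *IME2* and *RIM4* were thus the low ones in these growing cells. *RIM11*, *IME4* and *SUM1* were expressed at ordinary levels, and *NDT80* and *RIM15* lay between.

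**Figure D1:**
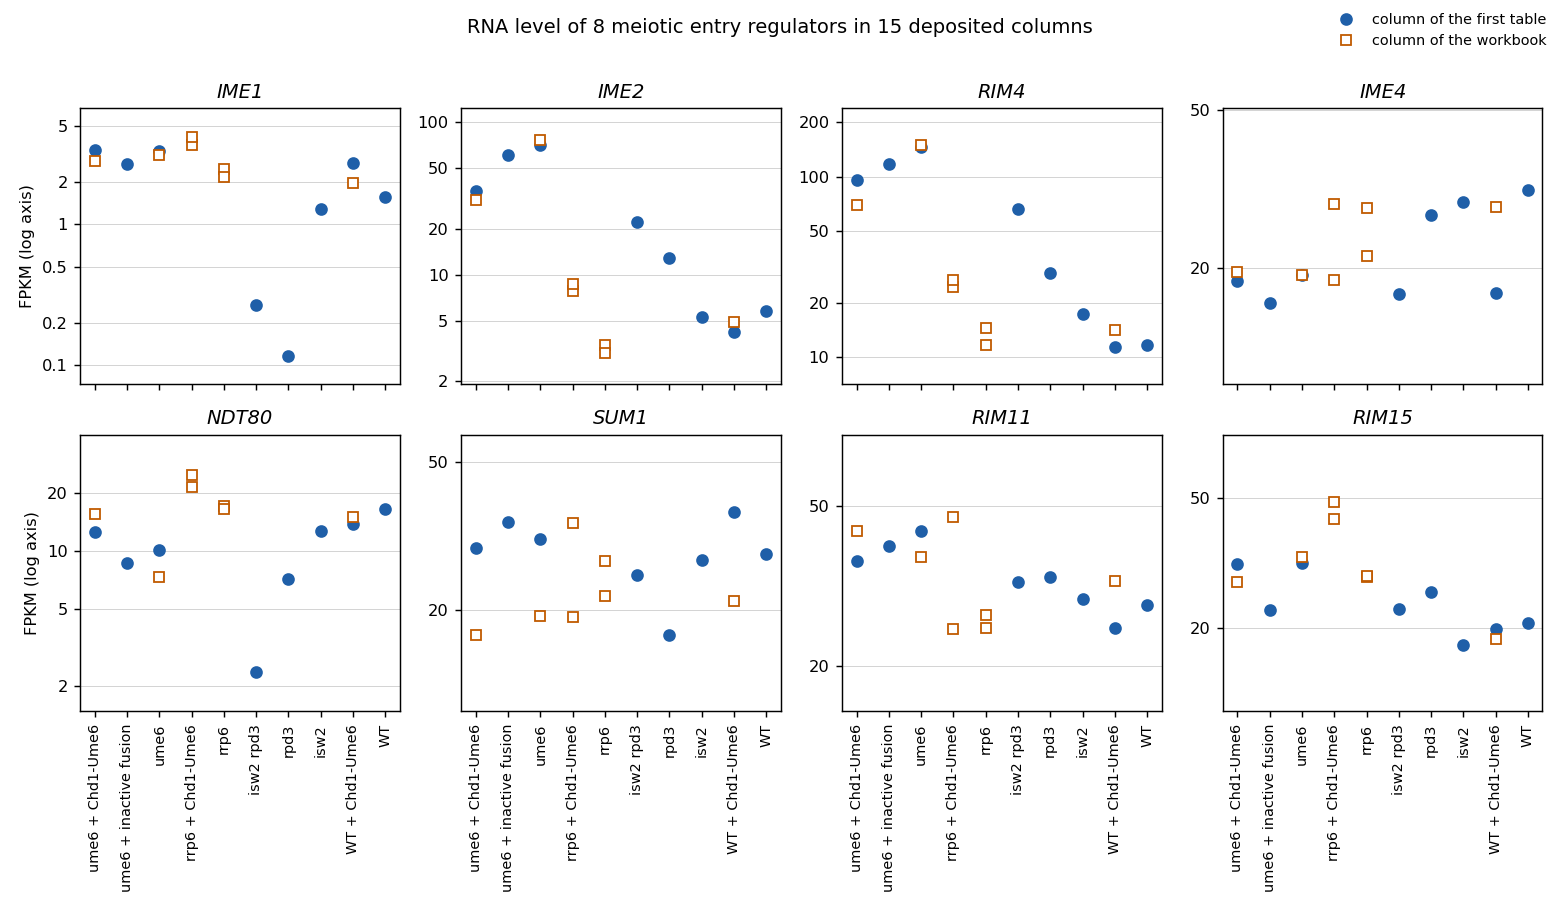
Level of each regulator in FPKM (log axis, a separate range for each gene) in the 15 deposited columns, by strain; filled circles are columns of the first table and open squares columns of the workbook. *IME2* and *RIM4* are highest in the strains without *UME6*, *IME1* is lowest in the strains without *RPD3*, and *NDT80* is lowest in the double deletion at 2.39 FPKM.

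The sequence upstream of each gene was read from the reference genome (RefSeq R64, strain S288C; the build of the deposited files is not given in the sources used here). The core of URS1, GCCGCC on either strand, was found within 1000 bases before the start codon of *IME2*, *RIM4* and *IME4* and in none of the other 5. Of all 5969 genes searched, 18.3% held it. The authors' own entry for a motif was yes for *IME2* and *RIM4* and no for the other 6, and the core was in 84.6% of the 228 searched genes with a yes and in 15.6% of those with a no. The windows that hold the cores are printed because the strains differ in what acts at this element; the core is in capitals, as GCCGCC or as its reverse complement GGCGGC. The *IME2* window is chrX:220790-220989 on the + strand, 200 bases that begin 600 bases before the start codon, the *RIM4* window is chrVIII:56249-56398 on the + strand (150 bases, from 400 bases before), and the *IME4* window is chrVII:141986-142045 on the + strand (60 bases, from 260 bases before).
IME2: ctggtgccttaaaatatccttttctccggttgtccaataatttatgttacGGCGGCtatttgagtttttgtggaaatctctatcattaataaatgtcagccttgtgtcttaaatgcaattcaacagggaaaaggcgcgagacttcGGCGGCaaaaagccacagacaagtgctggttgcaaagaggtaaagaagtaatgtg
RIM4: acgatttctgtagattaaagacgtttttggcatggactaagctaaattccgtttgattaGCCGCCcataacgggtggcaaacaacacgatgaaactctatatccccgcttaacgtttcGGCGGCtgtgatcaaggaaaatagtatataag
IME4: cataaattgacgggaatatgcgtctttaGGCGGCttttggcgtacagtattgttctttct
The 2 cores of *IME2* began 550 and 455 bases before the start codon. *RIM4* had cores at 341 and 282 bases, both in the printed window, and another at 791 bases. *IME4* had a core at 232 bases. A match to these letters is a description of the window, not evidence of binding.

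*IME2* and *RIM4* were the regulators that rose when Ume6 was absent. *IME2*, whose kinase drives premeiotic DNA replication and later steps, was at 70.7 and 76.7 FPKM in the *ume6* deletion (first table and workbook), against 5.77 in wild type. *RIM4*, whose product binds mRNAs and holds back their translation, was at 145 and 149 FPKM in the *ume6* deletion, against 11.6 in wild type. Both *ume6* columns lay above wild type for both genes, as they did for 38.6% of all genes. Fitted changes are on the log2(FPKM + 1) scale, from limma over all genes with Benjamini-Hochberg adjustment. With 2 columns of *ume6* and 1 of wild type, *IME2* rose 10.9-fold (3.45 ± 0.26 SE, adjusted p = 0.000701) and *RIM4* 11.9-fold (3.58 ± 0.30 SE, adjusted p = 0.001). Within the first table, where both strains have a column, the changes were 3.41 and 3.54. Of the 8 regulators these 2 passed, beside 1.59% of all genes that rose and 2.13% called in either direction. The wild type mean has no spread of its own and was assumed to vary like the other columns.

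The other 6 regulators did not pass in the *ume6* deletion. *IME1* was at 3.34 and 3.12 FPKM, against 1.56 in wild type (0.82 ± 0.33 SE, adjusted p = 0.222). *NDT80* was at 10.2 and 7.35 FPKM, against 16.6 in wild type (-0.86 ± 0.30 SE, adjusted p = 0.168). *RIM15* was at 31.7 and 33.1 FPKM, against 20.8 in wild type (0.65 ± 0.24 SE, adjusted p = 0.19). For these 3 genes both *ume6* columns lay on one side of the wild type mean, as they did for 79.1% of all genes. With the wild type mean weighted as 6 libraries, an alternative added after the values were seen, all 3 passed (adjusted p = 0.0445, 0.0278 and 0.0341). *IME4* (-0.81, 95% interval -1.64 to 0.02), *RIM11* (0.43, -0.47 to 1.32) and *SUM1* (0.17, -0.64 to 0.97) did not pass in either fit.

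Most of the listed genes that Ime1 and Ume6 turn on in meiosis rose in the *ume6* deletion. Of 28 early genes, most of which encode proteins of meiotic chromosome axes, recombination and synapsis, 19 rose, beside 1.59% of all genes, and none fell. The other 9 did not pass, and the median change of the 28 was 2.09 beside 0.04 over all genes. The largest were *SAE3* (6.12 ± 0.32 SE), *HED1* (5.57 ± 0.28 SE) and *HOP2* (4.26 ± 0.37 SE), all genes of meiotic recombination. The 22 genes that feed into *IME1*, among them its glucose and cAMP signalling genes and the *RME1* repressor gene, had 0 calls in this comparison, beside 2.13% of all genes. The middle genes, targets of Ndt80 and Sum1, had 1 call among 16, the spore gene *MPC54* (1.77 ± 0.29 SE), and a median of -0.26.

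**Figure D2:**
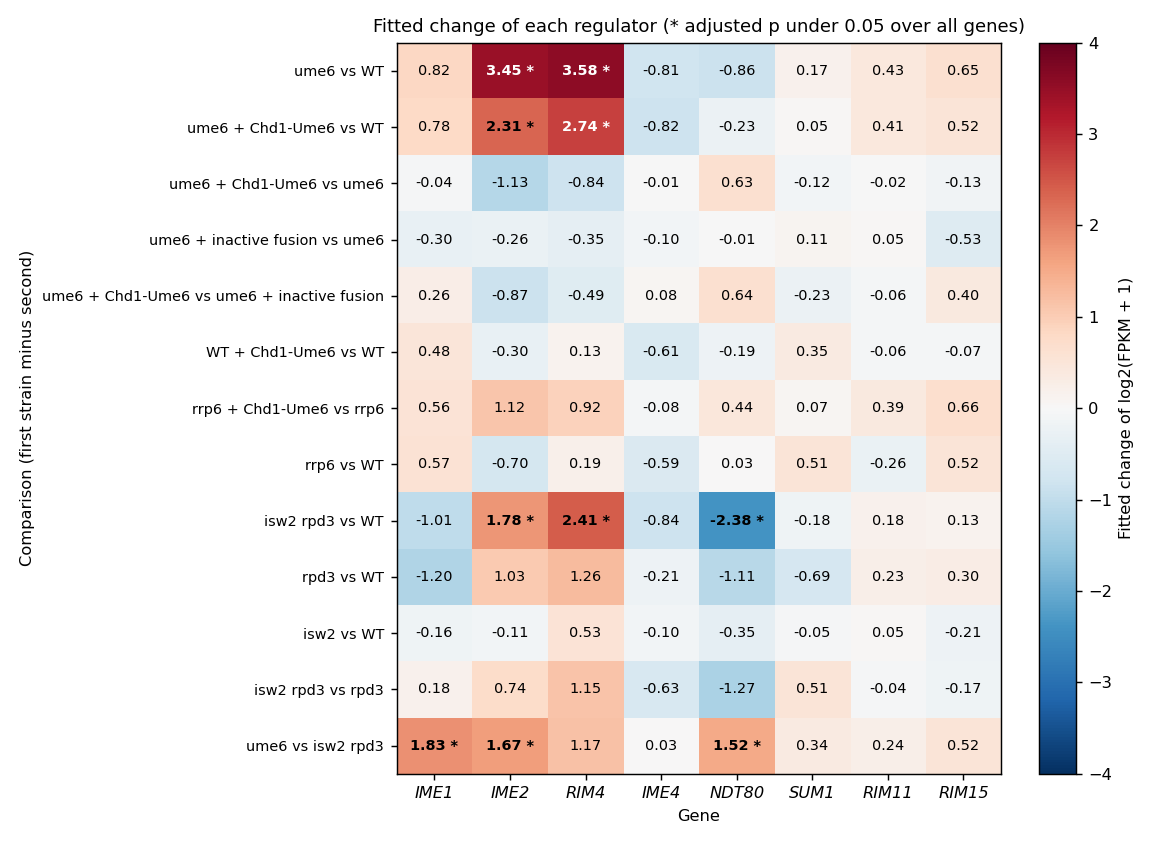
Fitted change of log2(FPKM + 1) for each regulator (columns) in 13 comparisons (rows, first strain minus second); colour and number give the change, and an asterisk marks an adjusted p under 0.05 over all 6241 genes. The asterisks fall on *IME2* and *RIM4* in strains without *UME6* or without both *ISW2* and *RPD3*, on *NDT80* in the double deletion, and on *IME1*, *IME2* and *NDT80* between *ume6* and the double deletion.

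Chd1-Ume6 in the *ume6* deletion asks whether a remodeler brought to URS1 can lower these genes without the native repressor. *IME2* was at 35.3 and 30.8 FPKM with the fusion, against 70.7 and 76.7 without it. *RIM4* was at 96.0 and 69.7 FPKM with the fusion, against 145 and 149 without it. Both columns with the fusion lay below both without it for these genes, as they did for 13.9% of all genes. The fitted changes were -1.13 ± 0.20 SE for *IME2* (adjusted p = 0.0765) and -0.84 ± 0.23 SE for *RIM4* (adjusted p = 0.195), and neither passed. By table, *IME2* differed by -0.98 in the first table and -1.29 in the workbook, and *RIM4* by -0.59 and -1.09. *NDT80* was at 12.6 and 15.5 FPKM with the fusion, against 10.2 and 7.35 without it (0.63 ± 0.23 SE, adjusted p = 0.368). The other 5 regulators differed by -0.13 to -0.01. limma called 0 of the 8, beside 0.224% of all genes, and 3 of the 8 had an unadjusted p under 0.05. With a pseudocount of 5 in place of 1, *IME2* passed (-1.05, adjusted p = 0.0425). The 28 early genes as a list barely moved, with 0 called and a median of -0.13 beside 0.06 over all genes.

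With the inactive fusion, in 1 column, both genes lay between *ume6* and the active fusion in the first table, *IME2* nearer to *ume6*. *IME2* was at 60.5 FPKM with the inactive fusion, against 70.7 in the *ume6* deletion of the same table (fitted -0.26, 95% interval -0.86 to 0.33). *RIM4* was at 117 FPKM, against 145 in the same table (-0.35, -1.04 to 0.34). Within the first table the inactive fusion differed from *ume6* by -0.31 for *RIM4*, and the active from the inactive one by -0.28. For *IME2* these differences were -0.22 and -0.76. limma called 0 of the 8, beside 0.0481% of all genes, and 0 of the 8 had an unadjusted p under 0.05. Among the 28 early genes 0 were called, with a median of -0.16 beside -0.03 over all genes. Between the active and the inactive fusion *IME2* differed by -0.87 ± 0.26 SE (adjusted p = 0.194) and *RIM4* by -0.49 ± 0.30 SE (adjusted p = 0.52). None of the 8 passed there, beside 0.353% of all genes, and 1 had an unadjusted p under 0.05. The early genes had 0 calls there too, with a median of -0.12 beside 0.09 over all genes. *CHD1* RNA, which includes that of the fusion, was at 836 and 1075 FPKM with the active fusion, against 1608 with the inactive one, and the part of this difference was not tested.

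With Chd1-Ume6 the *ume6* strain stayed far above wild type for both genes. *IME2* was 4.97-fold higher than in wild type (2.31 ± 0.26 SE, adjusted p = 0.00371) and *RIM4* 6.67-fold higher (2.74 ± 0.30 SE, adjusted p = 0.00366). Of the 8 regulators these 2 rose, beside 4.45% of all genes. Both calls ended without the first-table library of the fusion strain, where *IME2* was at 2.09 (adjusted p = 0.063) and *RIM4* at 2.32 (adjusted p = 0.054). The comparison shares its wild type column with that of the *ume6* deletion.

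In wild type cells, which keep Ume6, the fusion changed none of the 8 past the threshold. *IME2* was at 4.22 and 4.88 FPKM with the fusion, against 5.77 without it (-0.30, 95% interval -0.90 to 0.29). *RIM4* was at 11.3 and 14.1 FPKM, against 11.6 (0.13, -0.55 to 0.82), so the wild type value fell between the 2 fusion columns. *IME1* was at 2.73 and 1.98 FPKM, against 1.56 (0.48, -0.27 to 1.23). limma called 0 of the 8, beside 0.016% of all genes, and 0 had an unadjusted p under 0.05. The 28 early genes had 0 calls, with 7 of them at least 2-fold higher and a median of 0.72 beside 0.08 over all genes. Of all genes 1.67% were at least 2-fold higher.

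In the *rrp6* deletion the same fusion went with higher, not lower, *IME2* and *RIM4*. *IME2* was at 7.78 and 8.72 FPKM with the fusion, against 3.44 and 3.06 without it. *RIM4* was at 24.5 and 26.6 FPKM with the fusion, against 14.4 and 11.6 without it. Both columns with the fusion lay above both without it for these genes, as they did for 25.4% of all genes, and all 4 columns come from the workbook. The changes were 1.12 ± 0.20 SE for *IME2* (adjusted p = 0.053) and 0.92 ± 0.23 SE for *RIM4* (adjusted p = 0.121), and *RIM15* differed by 0.66 ± 0.19 SE (adjusted p = 0.149). limma called 0 of the 8, beside 0.705% of all genes, and 3 had an unadjusted p under 0.05. *IME2* passed with a pseudocount of 0.1 (adjusted p = 0.0428) and with the crossed block on the isolate numbers (adjusted p = 0.0337). Among the 28 early genes 3 rose, *SAE3* (2.25), *HED1* (1.65) and *MEI5* (1.64). All 3 are genes of meiotic recombination. The median change of the 28 was 0.41 here and 0.72 with the fusion in wild type, where none was called. The fusion's effect in *rrp6* minus that in wild type had a median of -0.05 over the 28, with 0 called. *SAE3* was at 6.66 and 5.72 FPKM in wild type with the fusion, against 0.498 without it.

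The effect of the fusion on *IME2* therefore had opposite signs in the *ume6* and *rrp6* deletions, and the difference was tested itself, in a comparison added after the values were seen. The change in *ume6* minus the change in *rrp6* was -2.26 ± 0.28 SE for *IME2* (adjusted p = 0.0327), with 2 columns in each of the 4 groups. For *RIM4* it was -1.76 ± 0.33 SE (adjusted p = 0.079). *IME2* was the only one of the 8 called, beside 0.176% of all genes called lower. The value for *IME2* kept its sign in all 21 alternatives and passed in 10 of them. The call ended when any library was left out other than *rrp6* library 1, with values between -2.42 and -2.09 and adjusted p up to 0.301. It also ended with quantile normalization (adjusted p = 0.0537) and with isolate numbers as a replicate block (adjusted p = 0.0665). The fusion's effect in *rrp6* minus that in wild type was 1.42 ± 0.33 SE for *IME2* (adjusted p = 0.172), and in *ume6* minus that in wild type -0.83 ± 0.33 SE (adjusted p = 0.718). limma called 0 of the 8 in both, beside 0.032% of all genes in the first and 0 of all genes in the second, where 395 genes had an unadjusted p under 0.05.

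**Figure D3:**
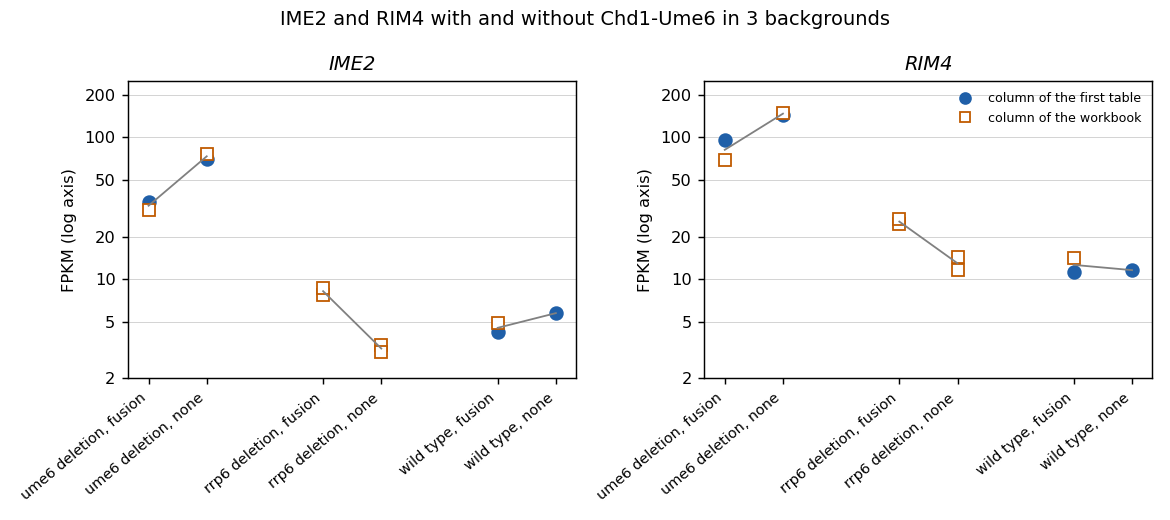
*IME2* and *RIM4* in FPKM (log axis) with and without Chd1-Ume6 in the *ume6* deletion, the *rrp6* deletion and wild type; points are columns and grey lines join the geometric means of the groups. Both genes lie lower with the fusion in the *ume6* deletion and higher with it in the *rrp6* deletion, at different levels in the 2 backgrounds.

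*RRP6* deletion without the fusion did not move the regulators past the threshold. *IME2* was at 3.44 and 3.06 FPKM in the *rrp6* deletion, against 5.77 in wild type (-0.70 ± 0.30 SE, adjusted p = 0.408). The strains are in different tables, so the link between them runs through the 3 strains present in both. limma called 0 of the 8, beside 0.433% of all genes, and 1 had an unadjusted p under 0.05. Of the 28 early genes 1 was called, *MEI4*, which was higher (2.55 ± 0.31 SE, adjusted p = 0.0147). The median of the 28 was 0.47 and that of the 16 middle genes 0.71, with 0 of these 16 called, beside 0.14 over all genes.

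Rpd3 and Isw2 are the enzymes that Ume6 recruits, and *IME2* and *RIM4* rose in the strain that lacks both. *IME2* was at 22.2 FPKM in the *isw2 rpd3* double deletion, against a wild type value of 5.77, and rose 3.43-fold (1.78 ± 0.28 SE, adjusted p = 0.0166). *RIM4* was at 66.0 FPKM there, against a wild type value of 11.6, and rose 5.32-fold (2.41 ± 0.33 SE, adjusted p = 0.00801). *NDT80* fell 5.19-fold (-2.38 ± 0.32 SE, adjusted p = 0.00801), with 2.39 FPKM there, against a wild type value of 16.6. These calls held in all 11 alternatives that kept every library, with changes of 1.34 to 1.93, 2.10 to 2.50 and -2.75 to -1.55. Neither strain has a second column that could be left out, so the change itself has no replicate check. Beside the 2 that rose and the 1 that fell, 1.76% of all genes rose and 2.03% fell. With 1 column on each side, the test borrows its spread from the other strains, and the comparison shares its wild type column with the others.

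The single deletions showed smaller differences. In the *rpd3* deletion *RIM4* was at 29.3 FPKM (1.26 ± 0.33 SE, adjusted p = 0.156) and *IME2* at 12.9 FPKM (1.03 ± 0.28 SE, adjusted p = 0.18), each between the double deletion and wild type. limma called 0 of the 8, beside 0.881% of all genes, and 4 had an unadjusted p under 0.05. Past 2-fold, 2 of the 8 were higher and 2 lower, beside 3.81% and 5.37% of all genes. These 4 were *RIM4*, *IME2*, *IME1* and *NDT80*, and with the wild type mean weighted 6-fold all 4 passed (adjusted p between 0.0306 and 0.047). In the *isw2* deletion *IME2* was at 5.27 FPKM (-0.11, 95% interval -0.76 to 0.54) and *RIM4* at 17.2 FPKM (0.53, -0.22 to 1.29). None of the 8 was called there, beside 0.016% of all genes, and none had an unadjusted p under 0.05. Between the double deletion and *rpd3* the differences were 1.15 ± 0.33 SE for *RIM4* (adjusted p = 0.427) and 0.74 ± 0.28 SE for *IME2* (adjusted p = 0.655), with 0 of the 8 called beside 0.417% of all genes and 3 with an unadjusted p under 0.05.

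The early genes stood in the same order. In the double deletion 12 of 28 rose and none fell, with a median of 1.56 beside 0.06 over all genes, led by *SAE3* (4.56), *HOP2* (4.35) and *HED1* (4.20). In the *rpd3* deletion 3 of 28 rose, *MND1* (2.78), *SAE3* (2.65) and *HED1* (2.12), with a median of 0.81 beside -0.09 over all genes. In the *isw2* deletion none was called, with a median of 0.02.

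*IME1* was at its lowest in the strains without Rpd3, and neither change from wild type passed. *IME1* was at 0.269 FPKM in the double deletion and 0.117 in *rpd3*, the 2 lowest of the 15 columns, against 1.56 in wild type. The other 13 columns lay between 1.29 FPKM, in *isw2*, and 4.18, in *rrp6* with the fusion. The change from wild type was -1.01 ± 0.36 SE in the double deletion (adjusted p = 0.164) and -1.20 ± 0.36 SE in *rpd3* (adjusted p = 0.21). Both passed with the wild type mean weighted 6-fold (adjusted p = 0.0432 and 0.047). At so low a level the value depends on the pseudocount, and in *rpd3* it was -2.94 with a pseudocount of 0.1 (adjusted p = 0.0319) and -0.36 with 5. Of the 22 genes that feed into *IME1*, 1 rose in the double deletion, beside 1.76% of all genes, and none fell. It was *CYR1*, the adenylate cyclase gene of the cAMP pathway that represses *IME1* (1.23 ± 0.27 SE, adjusted p = 0.0476). None of the 22 was called in *rpd3*, beside 0.881% of all genes. The part of *CYR1* in the level of *IME1* was not tested. In bulk RNA, fewer cells that express a gene and less RNA per cell cannot be told apart.

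The genes whose values over the 15 columns were most like those of *IME1* were *MIP6* (Pearson r = 0.964), *IRC4* (0.948) and *YSW1* (0.948). *MIP6* was at 0.885 FPKM in the double deletion and 0.586 in *rpd3*, against 4.59 in *isw2* and 3.76 in wild type. *IRC4* was at 0.741 FPKM in the double deletion and 0.893 in *rpd3*, against 9.24 in *isw2* and 9.62 in wild type. All 3 were picked for their likeness to *IME1* over these same columns, so their low values in the strains without Rpd3 restate that choice. The points share libraries and normalization, so r is given as a description. In the reference annotation *IME1* lies at chrX:604569-605651 on the - strand, and *IRT1*, a non-coding RNA known to repress *IME1* when it is transcribed, starts at the far end of chrX:605936-607424 and ends 284 bases before the *IME1* start codon. Its own level was not used here.

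Between the *ume6* deletion and the double deletion 3 regulators differed, all higher in *ume6*. *IME1* was at 3.34 and 3.12 FPKM in *ume6*, against 0.269 in the double deletion (1.83 ± 0.33 SE, adjusted p = 0.0177). *IME2* was at 70.7 and 76.7 FPKM, against 22.2 (1.67 ± 0.26 SE, adjusted p = 0.0105). *NDT80* was at 10.2 and 7.35 FPKM, against 2.39 (1.52 ± 0.30 SE, adjusted p = 0.0232). *RIM4*, at 145 and 149 FPKM against 66.0, did not pass (1.17 ± 0.30 SE, adjusted p = 0.0552), but passed with the crossed replicate block (adjusted p = 0.039), with no table term (adjusted p = 0.0447) and with a pseudocount of 5 (adjusted p = 0.0452). Of all genes 5.27% were higher. Without the first-table *ume6* library none of the 3 calls held, with adjusted p of 0.145 for *IME1*, 0.124 for *IME2* and 0.271 for *NDT80*, and without the workbook *ume6* library *IME1* did not pass (adjusted p = 0.0614). With a pseudocount of 5 *NDT80* was at 0.89 (adjusted p = 0.0538), and with quantile normalization at 0.84 (adjusted p = 0.146) and *IME1* at 1.24 (adjusted p = 0.0713). Cell-type markers differed in the same comparison, with *MFA1* (4.0), *MFA2* (3.18) and *BAR1* (2.45) of the 7 a-cell markers and *STE3* (2.00) of the 4 alpha-cell markers higher in *ume6*, and *HO* (-3.12) of 6 haploid markers lower. The 7 a-cell markers summed to 2050 and 1639 FPKM in *ume6*, against 328 in the double deletion. The 6 haploid markers summed to 340 and 276 FPKM in *ume6*, against 357 in the double deletion. Their median change was 0.04, and none but *HO* was called. The part of these markers in the results was not tested.

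*NDT80*, the activator gene of the middle meiotic program, fell in the double deletion. Of the 16 listed middle genes 2 were called lower there, beside 2.03% of all genes. *NDT80* was at 2.39 FPKM in the double deletion, 7.17 in *rpd3* and 12.8 in *isw2*, against 16.6 in wild type, and the double deletion was the lowest of the 15 columns. The *rpd3* change was -1.11 ± 0.32 SE (adjusted p = 0.2) and the difference between the double deletion and *rpd3* was -1.27 ± 0.32 SE (adjusted p = 0.343). The highest values were 21.5 and 24.8 FPKM, in *rrp6* with the fusion, against 17.1 and 16.4 in *rrp6* (0.44, 95% interval -0.08 to 0.97).

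The region before *NDT80* is printed because its product and Sum1 both act through the MSE. Searched as GNCACAAAA on either strand, an extended MSE lay 221 and 86 bases before the *NDT80* start codon and before no other of the 8 genes, and 5.18% of all 5969 genes held one within 1000 bases. Its core, CACAAA, which every extended MSE contains, was before 51.5% of all genes. The window is chrVIII:356311-356510 on the + strand (200 bases, from 250 bases before the start codon), with the extended MSE in capitals, as it reads or as its reverse complement.
NDT80: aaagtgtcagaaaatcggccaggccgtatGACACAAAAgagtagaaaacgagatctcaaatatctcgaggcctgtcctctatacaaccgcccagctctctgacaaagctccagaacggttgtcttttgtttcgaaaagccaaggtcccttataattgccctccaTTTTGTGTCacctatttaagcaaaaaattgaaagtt

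Of 16 middle genes, *SMK1*, a kinase gene of spore wall assembly, and *MPC54*, a gene of the spindle pole body plaque that starts the spore membrane, fell in the double deletion. *SMK1* was at 2.73 FPKM in the double deletion and 5.82 in *rpd3*, against 15.6 in *isw2* and 19.1 in wild type, and the change in the double deletion was -2.43 ± 0.34 SE (adjusted p = 0.00887). *MPC54* was at 0.564 FPKM in the double deletion and 0.535 in *rpd3*, against 7.20 in *isw2* and 3.32 in wild type (-1.46 ± 0.32 SE in the double deletion, adjusted p = 0.0455). The median of the 16 was -0.68 in the double deletion, beside 0.06 over all genes. In *rpd3* none was called and 7 of the 16 were at least 2-fold lower, beside 5.37% of all genes. Their median there was -0.92 beside -0.09 over all genes, lower than in the double deletion. Markers of a cells were low in the same column. They summed to 328 FPKM in the double deletion and 733 in *rpd3*, against 1342 in *isw2* and 1351 in wild type, with *MFA1*, *BAR1* and *MFA2* called lower in the double deletion of 7 markers and none at 0. Of the 4 alpha-cell markers *STE3* was called lower there too (-2.02, adjusted p = 0.0295), and the 4 had a sum of 22.0 FPKM in that column, against 28.8 in the wild type mean. The part of these markers in the fall of *NDT80* was not tested.

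**Figure D4:**
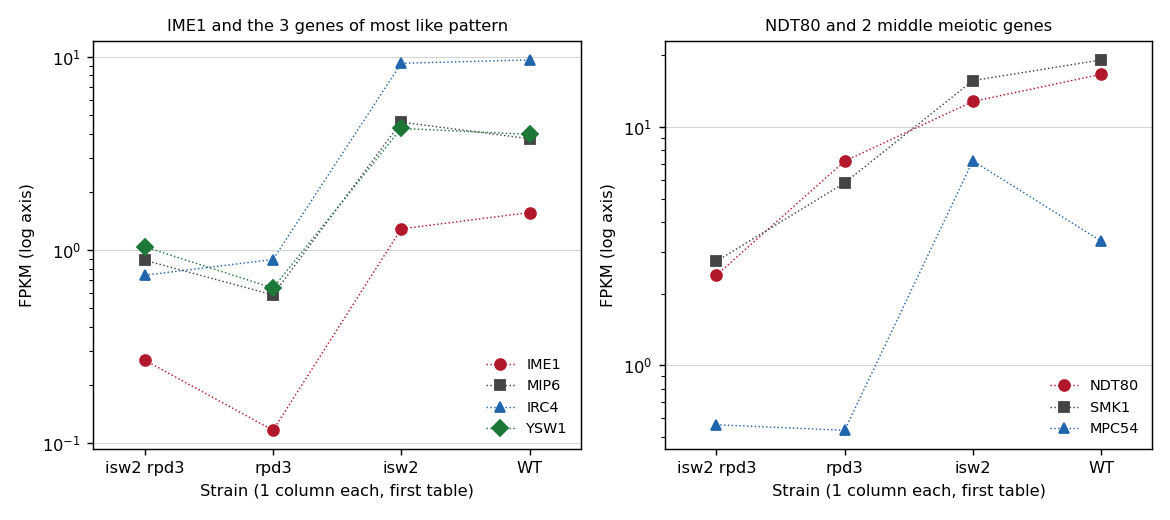
Left, *IME1* and the 3 genes of most like pattern, and right, *NDT80* with the 2 middle genes called lower in the double deletion, in FPKM (log axes) in the *isw2 rpd3*, *rpd3*, *isw2* and wild type columns of the first table, 1 column each; dotted lines only guide the eye. The genes on the left are low in both strains without *RPD3*, while *NDT80* and *SMK1* are lower in the double deletion than in *rpd3*.

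*SUM1*, the repressor gene of the middle program, changed in no comparison past the threshold. It lay between 17.2 FPKM, in *rpd3* and in the workbook column of *ume6* with the fusion, and 36.7 FPKM, in the first-table column of wild type with the fusion. Its columns of one strain differed both between the tables and within one. First-table and workbook columns of the same strain stood at 29.4 and 17.2 FPKM in *ume6* with the fusion, at 31.1 and 19.4 in *ume6*, and at 36.7 and 21.2 in the wild type carrying the fusion, which is 1.71-fold, 1.61-fold and 1.73-fold apart. Within the workbook, *rrp6* with the fusion gave 34.1 and 19.2 FPKM, 1.78-fold apart. The largest change from wild type was -0.69 ± 0.39 SE in *rpd3* (adjusted p = 0.555). *HST1* and *RFM1*, which encode the deacetylase and the linker of the Sum1 complex, were not called in any of the comparisons described here.

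*IME4* was highest in wild type, at 31.5 FPKM, and changed in no comparison past the threshold, except in *ume6* with the fusion when the wild type mean was weighted 6-fold (-0.82, adjusted p = 0.0476). It was at 18.6 and 19.5 FPKM in *ume6* with the fusion, 16.4 with the inactive fusion, 19.2 and 19.2 in *ume6*, and 17.2 in the double deletion. The first-table column of wild type with the fusion was at 17.3 FPKM and the workbook column at 28.4, and *rrp6* with the fusion gave 18.7 and 28.9, so columns of one strain differed by as much as 1.64-fold. *IME4* has an antisense partner. *RME2*, on the - strand of chrVII:141898-144120 in the reference annotation, covers all 1803 bases of *IME4* and also the neighbouring *YGL193C*, and it is known to block *IME4* in haploid cells. The labels do not say whether the authors counted by strand, and reads of *IME4* and *RME2* cannot be told apart. Over the 8 first-table columns *IME4* and *YGL193C* had r = 0.875, and over the 7 workbook columns r = 0.04, as a description.

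Of the 6 listed partners of Ime4, 3 rose in the *ume6* deletion, beside 1.59% of all genes, and none fell. *PHO92*, which encodes the reader of methylated mRNA and is listed in the files as *YDR374C*, was at 103 and 112 FPKM in *ume6*, against 0.918 in wild type (5.64 ± 0.32 SE, adjusted p = 9.82e-05). *SLZ1* was at 67.5 and 116 FPKM, against 8.95 (2.86 ± 0.37 SE, adjusted p = 0.00779), and *VIR1*, listed as *YGL036W*, at 74.2 and 61.3 FPKM, against 26.5 (1.45 ± 0.24 SE, adjusted p = 0.0199). *MUM2* (0.31), *KAR4* (0.64) and *DYN2* (0.53) did not pass. *PHO92* alone of the 6 also rose in the double deletion, at 47.4 FPKM (4.66 ± 0.35 SE, adjusted p = 0.00064), and with the fusion in *rrp6*, at 8.86 and 13.0 FPKM against 0.813 and 1.11 (2.59 ± 0.24 SE, adjusted p = 0.0118). In wild type with the fusion *PHO92* was at 8.75 and 14.2 FPKM, against 0.918 without it, and did not pass (2.48 ± 0.32 SE). The fusion's effect on it in *rrp6* minus that in wild type was 0.11 ± 0.40 SE. Like *IME2*, *PHO92* stood lower with the fusion in *ume6*, at 42.6 and 54.6 FPKM against 103 and 112, without passing (-1.14 ± 0.24 SE, adjusted p = 0.0855).

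The kinase genes *RIM11* and *RIM15* act on Ime1 and Ume6 as proteins, and *RIM11* RNA was called in no comparison. Rim11 is a kinase of the GSK3 family. Its gene lay between 24.7 and 47.0 FPKM, both in *rrp6* with the fusion, so the 2 libraries of that strain spanned the range of all 15 columns. In *ume6* it was at 43.5 and 37.4 FPKM, against 28.3 in wild type (0.43 ± 0.39 SE, adjusted p = 0.608). Its relatives *MCK1*, *MRK1* and *YGK3* were not called either.

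*RIM15*, whose kinase is held back by nutrient signalling and lets cells enter quiescence or meiosis, was highest in *rrp6* with the fusion. It was at 43.1 and 48.8 FPKM there, against 28.6 and 28.9 in *rrp6*, 19.9 and 18.6 in the wild type carrying the fusion, and 20.8 in wild type alone. The 2 columns of *rrp6* with the fusion were the highest of the 15. Against wild type with the fusion, a comparison added after the values were seen, *RIM15* was called 2.38-fold higher with 2 columns on each side (1.25 ± 0.20 SE, adjusted p = 0.0149), and it was the only one of the 8 called, beside 5.51% of all genes called higher. Within the workbook, which holds both strains, the difference was 1.26. The call ended without library 2 of *rrp6* with the fusion (adjusted p = 0.067), without the workbook library of wild type with the fusion (adjusted p = 0.258), with quantile normalization (adjusted p = 0.051) and with the replicate block (adjusted p = 0.0565). In the same comparison 5 of the 16 middle genes were higher, the largest being *SPR3* (2.76), *GSC2* (2.52) and *SPS2* (1.70). Early genes were higher too, 5 of 28, the largest being *REC104* (2.12), *SPO13* (1.83) and *MER1* (1.36). None of the 7 genes around Rim15 was called.

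Across all 15 columns, with the difference between tables removed, *IME2* and *RIM4* followed each other most closely, and each was among the genes most like the other (r = 0.985). Next to *IME2* came *ACS1* (0.980), the acetyl-CoA synthetase gene, and next to *RIM4* came *INO1* (0.983), of inositol synthesis, and *SIP4* (0.982), an activator gene of gluconeogenesis. The authors' motif entry was yes for all of these. For *NDT80* the likest were *YAR009C* (0.921), *SOK2* (0.920) and *GIC2* (0.916), for *SUM1* *PRP8* (0.965), *STE20* (0.951) and *PKC1* (0.950), and for *RIM15* *CHS6* (0.945), *SCC4* (0.917) and *PAU23* (0.910), none of which had a yes. *IME4* and *RIM11* varied by less than 1 on the log2 scale, and no like genes are named for them. *IME1* and *IME2* had r = 0.10, as a description. *IME1* was at 4.18 FPKM or less in every column and lowest in the strains without Rpd3. The *ume6* strains lack native Ume6, through which Ime1 acts, so this r cannot show whether *IME2* follows its activator.

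Strains were also ranked on the deposited FPKM, with the difference between tables left in. Only the workbook holds the *rrp6* strains, and only the first table holds the double deletion, *rpd3*, *isw2*, the inactive fusion strain and wild type. *IME2* was highest in *ume6* and the inactive fusion strain. Then came *ume6* with the fusion, the double deletion, *rpd3* and *rrp6* with the fusion, whose values followed each other without overlap. Below these, wild type, *isw2* and wild type with the fusion lay between 4.22 and 5.77 FPKM and *rrp6* at 3.44 and 3.06. Wild type and *isw2* differed by -0.11 on the log2 scale, less than the 0.17 between the 2 libraries of wild type with the fusion. For *RIM4* the order was the same down to *rpd3* and *rrp6* with the fusion, at 29.3 FPKM and 24.5 to 26.6. These 2 strains are in different tables, and the *RIM4* columns of *ume6* with the fusion differed 1.38-fold between the tables. The order below that was not that of *IME2*: *isw2* was at 17.2 FPKM, and the columns of *rrp6*, wild type and wild type with the fusion overlapped between 11.3 and 14.4.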

How the data were processed

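The authors deposited abundances as log2 FPKM in a first table and a workbook, per the file headers. The workbook sheet of the *ume6* deletion held log10 values in spite of its header, since the deposited log10 values summed to 938206 FPKM when read so and to 20678.5 when read as log2. TopHat2, Cufflinks 2.2.1, Cuffdiff, SAMtools and CASAVA are named, without roles, per the submitters' processing notes. Of the 1003 genes at 100 to 1000 FPKM in the wild type column, 15.75% were within 0.02 of a whole number of thousandths of FPKM, 30.8% when multiplied by 2 and 93.3% when multiplied by 6. From these digits the column was taken to be a mean. Of these multiples 6 fitted best, while the labels describe 2 wild type libraries. Which libraries the column averages is not known, and it was treated as 1 column. No sample column was left unused.

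Values were returned to FPKM, and a single limma model (limma 3.58.1, R 4.3.3) of log2(FPKM + 1) took all 15 columns, with 10 groups, a term for the table and a trend on abundance. It covered the 6241 genes that had a value in every column and reached 1 FPKM in 2 or more columns. It had 4 residual degrees of freedom, and calls were made at 0.05 after Benjamini-Hochberg adjustment. Groups with 1 column were assumed to vary like the others. The design had assumed 17 libraries. Isolates are numbered in the labels, with nothing on separate cultures, and the p-values cover only the spread between columns, which may be technical.

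The 8 genes, the lists and the comparisons were chosen with earlier results of these data known, and 2 comparisons were added after the values were seen. From each list the text names up to 3 called genes of largest change, and every gene of the Ime4, Rim11 and Sum1 lists. Likeness was Pearson r over the 15 columns after the table term was subtracted, for genes spanning at least 1 (log2). Scripts were tested on simulated data. Alternatives changed the pseudocount, filter, normalization, table term, trend, replicate block and the library left out.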

Additional observations from a re-analysis of the deposited data

Results flagged for a closer look

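The effect of Chd1-Ume6 on *IME2* differed between the *ume6* and *rrp6* deletions by -2.26 ± 0.28 SE on the log2(FPKM + 1) scale, with an adjusted p of 0.0327 from limma for the difference itself. *IME2* was lower with the fusion in both *ume6* columns and higher with it in both *rrp6* columns. The fusion's own RNA differed too, with *CHD1* at 836 and 1075 FPKM in *ume6* with the fusion and 288 and 276 FPKM in *rrp6* with the fusion, and its part in the result was not tested. The *rrp6* strains keep native Ume6, which the *ume6* strains lack, so this comparison alone changes Ume6 and Rrp6 together. Wild type keeps both. The fusion's effect on *IME2* minus that in wild type was 1.42 ± 0.33 SE in *rrp6* and -0.83 ± 0.33 SE in *ume6*. Neither passed.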

How the results depend on the processing

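The calls of *IME2* and *RIM4* in *ume6* against wild type held in 21 of 21 alternatives each. Those of *IME2*, *RIM4* and *NDT80* in the double deletion held in all 11 that kept every library, while leaving out a library of another strain cannot move the change and altered only its error. No called change reversed its sign in any alternative. Counts of called regulators moved as follows. Against wild type, weighting the wild type mean 6-fold gave 5 in *ume6*, 4 in *ume6* with Chd1-Ume6, 4 in the double deletion and 4 in *rpd3*, and a pseudocount of 0.1 gave 1 in *rpd3*. For Chd1-Ume6 in *ume6* a pseudocount of 5 gave 1. For Chd1-Ume6 in *rrp6* a pseudocount of 0.1 and the crossed replicate block gave 1 each. For *ume6* against the double deletion, quantile normalization gave 1, a filter at 5 FPKM, which removes *IME1*, gave 2, and the crossed replicate block and the fit with no table term gave 4 each. For the added difference between the effects of the fusion in *ume6* and *rrp6*, quantile normalization gave 0, the replicate block 0 and the crossed replicate block 2. For *rrp6* against wild type, both with the fusion, quantile normalization and the replicate block gave 0.

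Leaving out 1 library at a time gave 0 to 2 regulators for *ume6* with the fusion against wild type, 0 to 3 for *ume6* against the double deletion, and 0 to 1 for each added comparison. Same-numbered columns had deviations with r between -0.625 and 0.413 over the 10 pairs of strains with 2 columns. It was -0.337 for *rrp6* with and without the fusion and 0.413 for *rrp6* and wild type, both with the fusion. The numbers were not taken to pair samples. The replicate block changed no other count. For strains in both tables the number is the table. Depth is unknown, and *IME1*, under 5 FPKM in every column, is measured least well. The median change of all genes in *ume6* against wild type was 0.04, and -0.11 with median scaling.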
